A study of Mus musculus with 18 samples.

Results

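Transcript levels in mouse tissue labelled hippocampus were compared between 3 AtrxΔE2 mice and 3 wild-type mice on the 6 single-colour microarrays of the first of 2 array series. These arrays were chosen by genotype label and by the array series in their identifiers, and they are 6 of the 18 arrays of the study. AtrxΔE2 mice carry a mutant allele of the X-linked gene Atrx, and the name refers to a deletion of exon 2. The second series held 4 AtrxΔE2 and 4 wild-type arrays, used here only for comparison, and 4 arrays of AtrxΔE2 mice that had been given 5-aminolevulinic acid by mouth, which were not used. No mouse of the first series is labelled as treated. The labels count 1 mouse per array, and strain, sex and age at sampling are not given in the sources used here. All of the array's probes were followed, and 22526 of 23473 lay above the blank spots on at least 3 of the 6 arrays and were tested. Of these, 16148 had a gene name and stood for 15918 genes.

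ATRX is a chromatin remodeller of the SNF2 family. With its partner DAXX it deposits the histone variant H3.3 at pericentric and telomeric repeats and other silent chromatin, and it is known to bind G-rich and repetitive DNA. Loss of function of human ATRX causes X-linked intellectual disability with alpha thalassaemia. In mouse brain, the imprinted X-linked gene Xlr3b and genes of the ancestral pseudoautosomal region such as Csf2ra are known as genes whose expression depends on ATRX.

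The sequences upstream of 5 genes to which the results below return are shown because the array itself gives only a probe name for each: Atrx, its neighbours Magt1 and Atp7a, and the ATRX-linked genes Xlr3b and Csf2ra. Each is the 250 bases before the RefSeq start of the gene on GRCm38.p6, written 5′ to 3′ on the gene's strand, with every CG in capitals.
Atrx (chrX:105929373-105929622, minus strand): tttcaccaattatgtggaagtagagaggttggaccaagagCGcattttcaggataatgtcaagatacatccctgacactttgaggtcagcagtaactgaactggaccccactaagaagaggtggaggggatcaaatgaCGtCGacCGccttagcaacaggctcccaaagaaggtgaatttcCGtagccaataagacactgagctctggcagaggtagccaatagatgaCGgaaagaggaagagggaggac
Magt1 (chrX:106011803-106012052, minus strand): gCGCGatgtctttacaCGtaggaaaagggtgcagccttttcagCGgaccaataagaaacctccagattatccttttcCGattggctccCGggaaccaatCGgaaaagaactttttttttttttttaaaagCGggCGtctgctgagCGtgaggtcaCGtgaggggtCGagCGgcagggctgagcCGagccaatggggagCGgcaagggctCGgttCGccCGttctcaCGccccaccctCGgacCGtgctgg
Atp7a (chrX:106026974-106027223, plus strand): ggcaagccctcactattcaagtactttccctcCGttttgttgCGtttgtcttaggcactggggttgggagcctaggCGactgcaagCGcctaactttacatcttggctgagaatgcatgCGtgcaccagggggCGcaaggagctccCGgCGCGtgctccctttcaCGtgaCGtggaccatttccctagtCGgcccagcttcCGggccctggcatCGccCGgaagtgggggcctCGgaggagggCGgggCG
Xlr3b (chrX:73191929-73192178, plus strand): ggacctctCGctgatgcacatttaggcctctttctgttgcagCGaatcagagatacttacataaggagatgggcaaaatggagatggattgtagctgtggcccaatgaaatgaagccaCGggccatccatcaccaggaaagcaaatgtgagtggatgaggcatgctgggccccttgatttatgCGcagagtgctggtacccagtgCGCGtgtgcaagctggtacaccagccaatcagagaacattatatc
Csf2ra (chr19:61228419-61228668, minus strand): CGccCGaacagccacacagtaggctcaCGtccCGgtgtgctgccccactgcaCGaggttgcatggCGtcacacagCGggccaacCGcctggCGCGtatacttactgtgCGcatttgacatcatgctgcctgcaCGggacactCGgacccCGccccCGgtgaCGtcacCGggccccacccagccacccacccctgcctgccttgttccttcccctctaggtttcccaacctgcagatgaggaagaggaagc
The stretches before Magt1, Atp7a and Csf2ra hold 21, 18 and 17 CG, and those before Atrx and Xlr3b hold 6 each. The median over 32841 RefSeq starts is 6, with quartiles of 2 and 16. At least 18 CG, as before Atp7a, stood at 21.7% of all starts. The letters of a G-quadruplex motif, 4 runs of GGG or longer parted by 1 to 7 bases of any kind (N), were searched on both strands. They matched before 1 of the 5 genes, Csf2ra, with 2 overlapping matches on the strand opposite to the gene, and at 16.7% of all starts. Runs of GGGG or CCCC were present before all 5 genes and at 83.1% of all starts. These matches are a description of the letters and carry no measurement from the arrays.

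The median probe lay 45.8 to 53.7 intensity units above the blank spots on the AtrxΔE2 arrays and 42.9 to 44.4 units above them on the wild-type arrays, and 94.1% to 96% of probes were brighter on a given array than 95% of its blank spots. No 2 arrays held identical values, and correlations between arrays lay between 0.9938 and 0.9979. The highest was that between the third array of AtrxΔE2 and the third array of wild type, and the leading component of variance, with 40.8% of it, separated these 2 arrays (weights 0.66 and 0.46) from the other 4 (weights -0.39 to -0.16). Genes known as markers of olfactory bulb neurons were high on these 2 arrays. They were picked after their values had been seen and are given with no test, in the authors' normalized intensity, a linear scale on which the median probe of every array is 25. Doc2g measured 14.9, 14.4 and 465.4 on AtrxΔE2 arrays 1 to 3 and 11.3, 15.3 and 417.3 on wild-type arrays 1 to 3. Scgn, which encodes the calcium sensor secretagogin, measured 4.4, 4.5 and 77.2 on the AtrxΔE2 arrays and 2.1, 4.1 and 80.5 on the wild-type arrays. The pattern was the same for Th, the rate-limiting enzyme of dopamine synthesis, with 13.2, 17 and 193 in AtrxΔE2 and 13.2, 14.7 and 156.5 in wild type. Each genotype has 1 of these arrays. Apart from the genes picked below for a single array, differences and list medians that moved by over 1.5 times and by at least 0.04 without them are also given without them, beside the result or together after the gene lists.

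**Figure D1:**
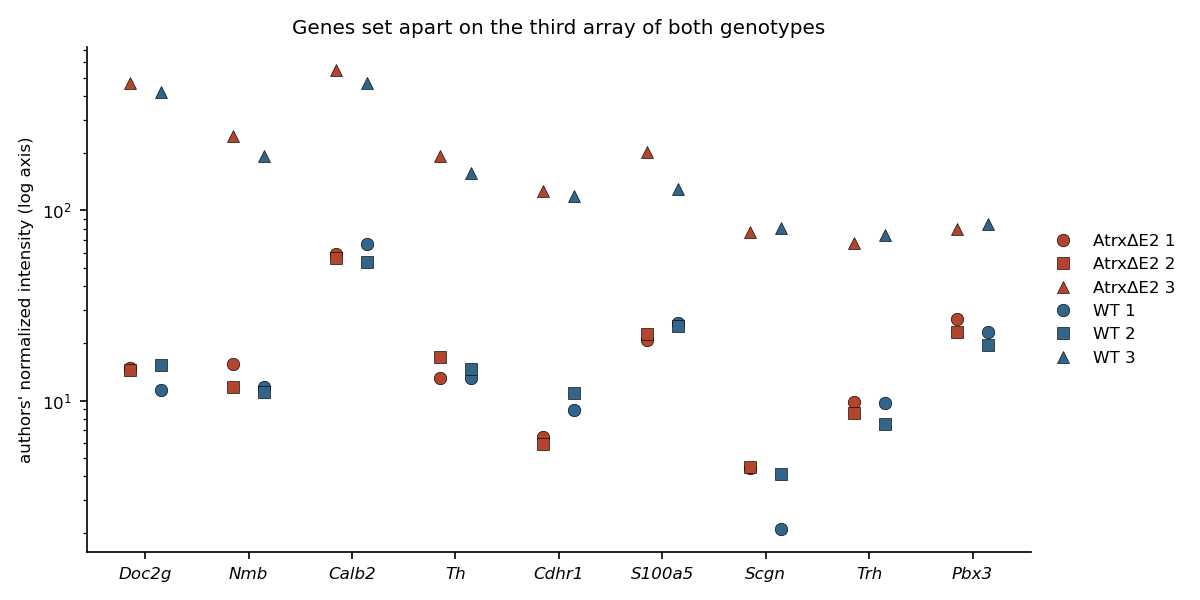
Authors' normalized intensity (log axis) of 9 genes on the 6 arrays of the first series, one point per array. For every gene shown, the 2 triangles, the third arrays of AtrxΔE2 (red) and wild type (blue), lie above the other 4 points.

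The label was also checked against markers, by setting the 6 first-series arrays against the 8 AtrxΔE2 and wild-type arrays of the second series. Of 22728 probes tested in that comparison, 57.8% differed in level at a limma adjusted p under 0.05, 31.7% higher and 26.1% lower in the first series. The lists of CA1, CA3, dentate granule and cortex genes went both ways. Of 14 CA1 genes 7 were lower and 4 higher, and of 15 CA3 genes 7 were lower and 3 higher. Of 20 dentate granule genes 4 were lower and 4 higher, and of 20 cortex genes 6 were lower and 8 higher. Their median level differences were -0.09, -0.17, 0.01 and 0.07. Of 19 striatal genes 18 were lower and 0 higher, with a median of -0.76. Of 22 thalamus and septum genes 14 were lower and 2 higher, with a median of -0.35. Single members shown here were picked after their values had been seen. C1ql2, a synaptic organiser of dentate granule cells, was lower on first-series arrays by a log2 difference of -2.12 (SE 0.27, limma adjusted p = 3.37e-05), and Spink8, a marker of CA1, was lower by -1.89 (SE 0.122, limma adjusted p = 1.64e-07). Calb1, a calcium buffer on the dentate list, was higher by 0.90, and Ccn3, on the CA1 list, was higher by 2.27 (SE 0.126, limma adjusted p = 5.04e-08). Ttr, the defining transcript of choroid plexus, lay between 4.9 and 68.8 authors' intensity units in the first series, against 23789 to 34507.1 in the second, and 20 of 22 choroid plexus genes were lower in the first series. All 30 measured myelin genes were lower there as well, with a median difference of -1.35. Prox1, another dentate marker, was not distinguishable between the series (-0.04, limma adjusted p = 0.118). Its probe was dim in both, at 7.1 to 9.9 authors' intensity units in the first series and 7.8 to 11.3 in the second. At such levels a small difference could not be resolved. Array series and whatever else differed between the 2 sets of samples cannot be told apart. The tissue is called by its label below. In such bulk RNA, fewer cells of a type and less RNA per cell cannot be told apart either.

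Between AtrxΔE2 and wild-type mice of the first series, no probe passed the test. limma called 0 of 22526 probes (0%) at a Benjamini-Hochberg adjusted p under 0.05. At an unadjusted p under 0.05 there were 764 probes, 3.39% of those tested, where 1126 would make up 5%. They divided into 369 higher in AtrxΔE2 (1.64%) and 395 lower (1.75%). With arrays scaled to a common median in place of quantile normalization, which moved the median of all differences to -0.016, there were 924 higher and 431 lower. The 2 genotypes did not overlap, every AtrxΔE2 array lying above or every one below all wild-type arrays, at 811 probes in the higher direction (3.6%) and 863 in the lower (3.83%), together 1674 or 7.43%. With 3 mice against 3, a two-sided exact permutation test of a single probe cannot go below p = 0.1. A probe without overlap has exactly that p. Labels placed at random would separate a share of 0.1 of probes on average, so a lack of overlap is weak on its own.

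Differences were small. All are given as AtrxΔE2 minus wild type on the scale of normalized log2 intensity, where an offset of 50 intensity units shrinks the differences of dim probes. The median size over all probes was 0.0319, 30 probes differed by more than 0.5 in size (17 higher, 13 lower), and none by more than 1. The smallest adjusted p, 0.258, was shared by 2 probes, 1 for Atp7a and 1 with no gene name here (M400014112). Every other probe had a limma adjusted p of at least 0.9996, which is therefore not repeated at each gene below. Single genes are given with the standard error of their difference, on 6 arrays.

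**Figure D2:**
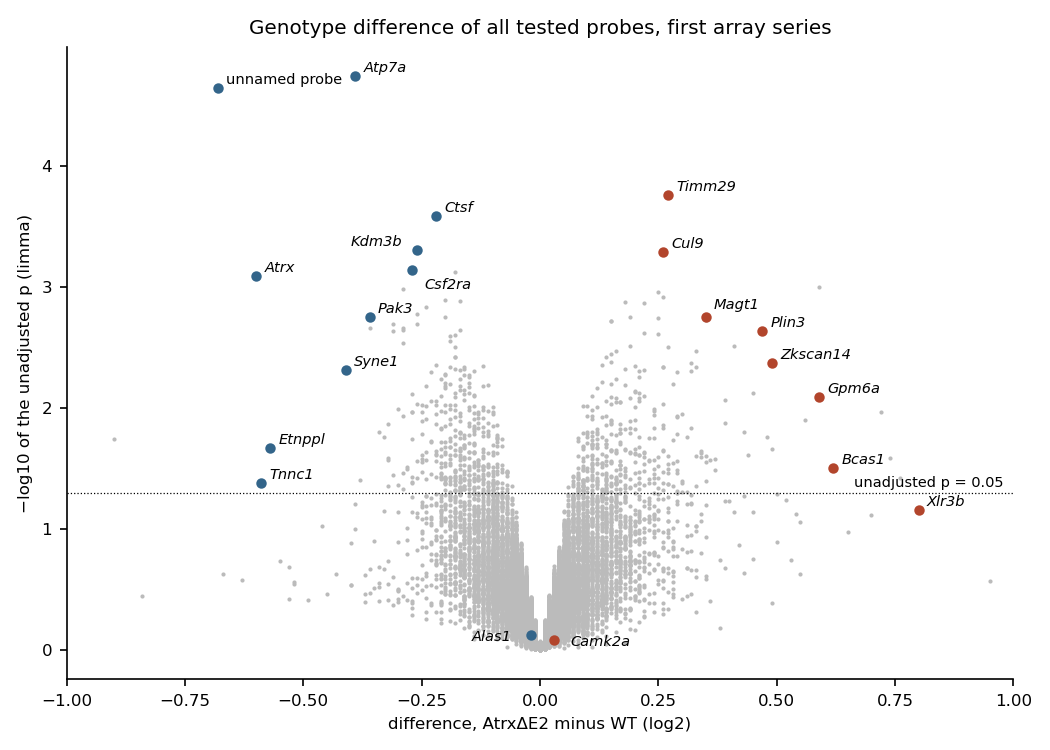
Difference between AtrxΔE2 and wild type (log2, x axis) against −log10 of limma's unadjusted p (y axis) for every tested probe of the first series (grey), with 19 genes and 1 unnamed probe marked in red (higher in AtrxΔE2) or blue (lower). Atp7a and the unnamed probe stand at the top with an adjusted p of 0.258, and no probe passed the adjusted threshold.

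Atrx itself was measured by 1 probe. It gave 6.63, 6.47 and 6.63 on the 3 AtrxΔE2 arrays and 6.98, 7.26 and 7.28 on the 3 wild-type arrays. The genotypes did not overlap, with a difference of -0.60 (SE 0.0943, 95% confidence interval -0.83 to -0.36) that was not called. On the authors' linear scale the ratio of the means was 0.462. Where the probe lies relative to exon 2 is not given in the sources used here, so its level is not a check of the labels on its own.

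Of the 10 named array genes on either side of Atrx in RefSeq order, 18 were measured. Magt1, the next gene and a subunit linked to magnesium transport and protein glycosylation, gave 7.33, 7.13 and 7.10 in AtrxΔE2 and 6.83, 6.85 and 6.84 in wild type. The genotypes did not overlap, and the difference was 0.35 (SE 0.0649). Atp7a, which encodes a copper-transporting ATPase mutated in Menkes disease, gave 6.83, 6.80 and 6.77 in AtrxΔE2 and 7.17, 7.22 and 7.18 in wild type. The genotypes did not overlap. Atp7a had the smallest p of all named probes, with a difference of -0.39 (SE 0.0307, 95% confidence interval -0.47 to -0.31, limma adjusted p = 0.258). Cox7b, a cytochrome c oxidase subunit that lies between these neighbours, averaged close to wild type with a difference of 0.07 (SE 0.0622), and the next genes, Tlr13 and Pgk1, had 0.03 and 0. Fgf16, on the other side of Atrx, had 0.03 (SE 0.161). With Atrx included, 3 of these 19 genes had an unadjusted p under 0.05, 1 higher and 2 lower, where the background over all genes was 3.55%. The neighbours were brought into the study of these arrays with earlier results of the same data known.

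**Figure D3:**
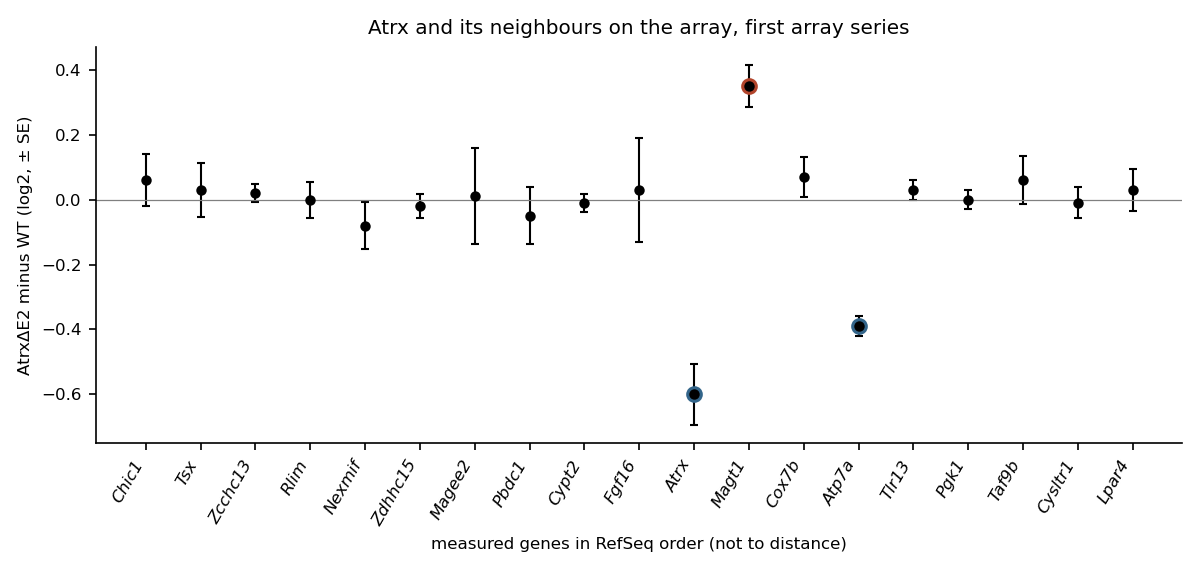
Difference between AtrxΔE2 and wild type (log2, points, with the standard error as bars) for Atrx and 18 measured neighbours in RefSeq gene order, not to distance. Atrx and Atp7a lie below 0 and Magt1 above it, and the other 16 genes lie between -0.08 and 0.07.

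Atp7a was called when its spread was estimated together with that of the second series, an alternative added after the data had been seen. Fitted to 14 arrays, the first-series difference of Atp7a was -0.34 (SE 0.0322, limma adjusted p = 0.00433), and that of the unnamed probe M400014112 was -0.61 (SE 0.066, limma adjusted p = 0.00999). These 2 probes were the calls of that fit. Between the second-series arrays of the same 14 the differences were -0.29 for Atp7a, -0.20 for the unnamed probe, -0.30 for Atrx and 0.10 for Magt1.

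Among the genes linked to ATRX in brain, Xlr3b had the largest difference of the named probes that separated the genotypes. Xlr3b belongs to a family of lymphocyte-regulated genes on the X chromosome and is imprinted in mouse brain. It gave 8.60, 7.48 and 7.31 in AtrxΔE2 and 6.92, 7.30 and 6.79 in wild type. The genotypes separated narrowly, AtrxΔE2 array 1 stood apart, and the difference of 0.80 had a wide error (SE 0.359). Without that array the difference was 0.39. Xlr4b, a member of the same cluster, gave 6.73, 6.59 and 6.50 in AtrxΔE2 and 6.52, 6.33 and 6.39 in wild type, which overlap, with a difference of 0.19 (SE 0.0748). Xlr5d was near the level of the blank spots in both genotypes, with a difference of -0.01 (SE 0.0321). Members of this family are near-identical in sequence, so a probe may read more than 1 of them.

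Csf2ra, the alpha chain of the receptor for granulocyte-macrophage colony-stimulating factor, gave 7.00, 6.92 and 7.04 in AtrxΔE2 and 7.24, 7.31 and 7.23 in wild type. The genotypes did not overlap, and the difference was -0.27 (SE 0.0425), against -0.05 in the second series. Csf2ra is on a list drawn up for globin genes and genes near G-rich repeats. No globin gene was measured, so the list's counts do not describe globin genes. Of its 20 genes 8 were measured, namely Nme4, Bpgm, Alas2, Dhrsx, Csf2ra, Nlgn1, Nlgn2 and Nlgn3. Of these, 4 were higher and 4 lower, with a median of -0.01. Dhrsx, on the same list, had 0.01 (SE 0.083). Nme4, next to the globin cluster in the human region where ATRX acts, did not separate the genotypes (-0.02, SE 0.0567). H19 and Igf2, both imprinted, had differences of -0.01 and -0.45, and the error of Igf2 was nearly as wide as its difference (SE 0.438), which was -0.76 without the third arrays. Over 45 imprinted genes the median difference was 0.01, with 24 higher and 21 lower and 0 at an unadjusted p under 0.05 in either direction.

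Plin3, a lipid droplet coat protein, was followed with 3 other genes for its place in earlier results of these data. Plin3 gave 8.73, 8.67 and 8.47 in AtrxΔE2 and 8.04, 8.28 and 8.14 in wild type, without overlap, a difference of 0.47 (SE 0.0913). Etnppl, the phospholyase of astrocytes that breaks down phosphoethanolamine, gave 7.22, 7.17 and 6.95 in AtrxΔE2 and 7.5, 8.08 and 7.46 in wild type, without overlap, a difference of -0.57 (SE 0.183). S100a4, a calcium-binding protein of white matter astrocytes and immune cells, averaged 6.91 ± 0.0903 in AtrxΔE2 and 6.56 ± 0.0911 in wild type (SD), a difference of 0.35 (SE 0.0658). All 3 had the same direction in the second series, with 0.57, -0.71 and 0.37. The direction of Plin3, Etnppl, S100a4 and Atp7a here is therefore no independent evidence. Camk2a, the alpha subunit of the calcium/calmodulin kinase of synapses, averaged 9.39 ± 0.0392 in AtrxΔE2 and 9.36 ± 0.263 in wild type (SD), a difference of 0.03 with a 95% confidence interval from -0.29 to 0.35 that was -0.11 without the third arrays. Alas1, which makes 5-aminolevulinic acid, had a difference of -0.02 (-0.13 to 0.10), and Hmox1, which breaks haem down, had -0.06 (-0.23 to 0.12).

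**Figure D4:**
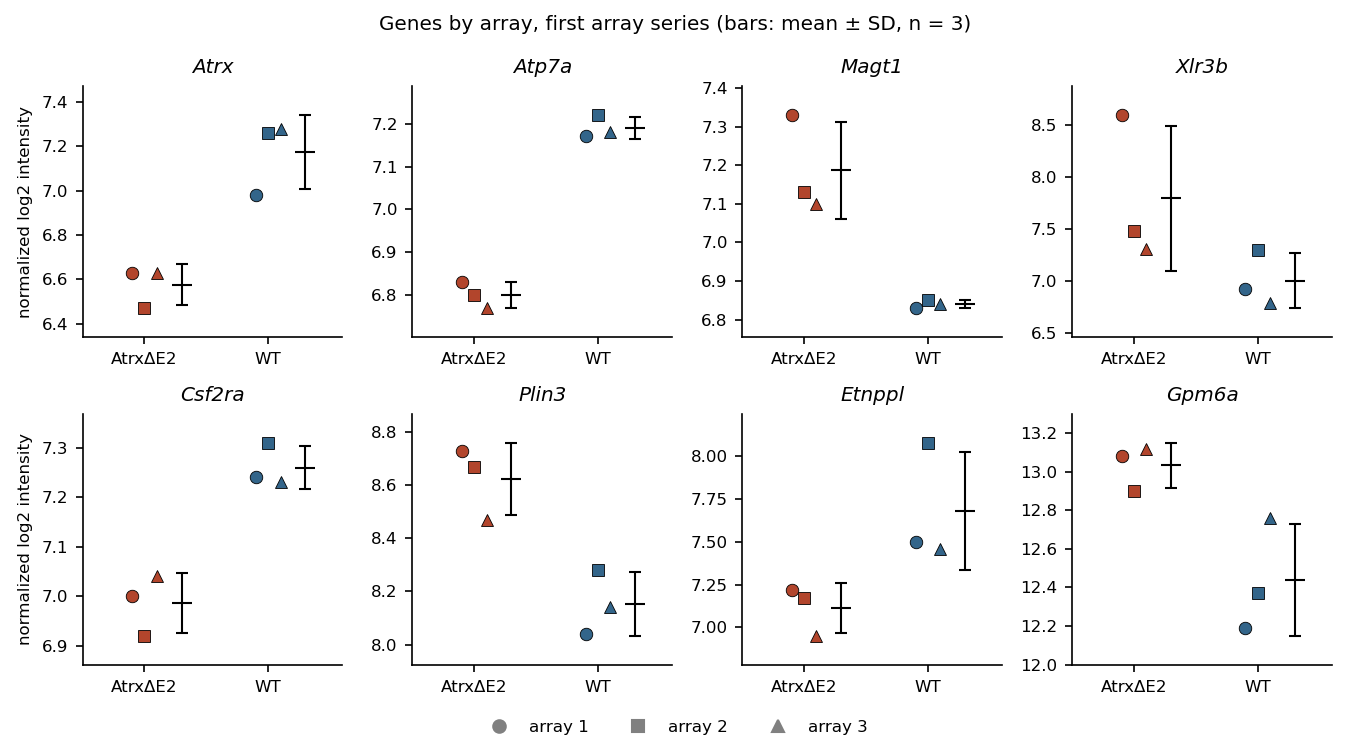
Normalized log2 intensity of 8 genes on the 6 arrays (points; circle, square and triangle for arrays 1 to 3), with the mean and SD of each genotype beside them, AtrxΔE2 left of WT. The genotypes do not overlap in any of the 8 panels, and each panel has its own axis that does not start at 0. The probes were chosen partly for this separation, and none was called.

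The 15 named probes with the largest non-overlapping differences in each direction ranged from 0.31 to 0.80 in size. Being chosen for their separation, they show the largest of what the arrays hold and test nothing. On the higher side stood 2 membrane proteins of neurons and glia. Gpm6a, a neuronal membrane glycoprotein that promotes filopodia and neurite growth, gave 13.08, 12.90 and 13.12 in AtrxΔE2 and 12.19, 12.37 and 12.76 in wild type, a difference of 0.59 (SE 0.151). Cd9, a tetraspanin of myelinating glia, averaged 9.99 ± 0.207 in AtrxΔE2 and 9.50 ± 0.253 in wild type (SD), a difference of 0.49 (SE 0.158). Entpd2, an enzyme that breaks down extracellular ATP, had 0.48 (SE 0.147).

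Zinc finger gene Zkscan14 gave 8.22, 8.33 and 8.27 in AtrxΔE2 and 7.59, 7.72 and 8.02 in wild type, a difference of 0.49 (SE 0.109). Hspb3, a small heat shock protein, had 0.45 (SE 0.114), and Rsrp1, an arginine- and serine-rich protein, had 0.44 (SE 0.147). Nkrf, which represses NF-kappa-B targets, had 0.43 (SE 0.128). Uqcrfs1, the Rieske iron-sulphur subunit of respiratory complex III, averaged 11.33 ± 0.0869 in AtrxΔE2 and 10.94 ± 0.188 in wild type (SD), a difference of 0.39 (SE 0.102). Stx4a, a plasma membrane syntaxin, had 0.36 (SE 0.124), and Trnau1ap, which takes part in selenoprotein synthesis, had 0.50 with an error of 0.204. Ppp6r2, a regulatory subunit of protein phosphatase 6, stood apart on 1 array and gave 8.03, 6.76 and 6.77 in AtrxΔE2 and 6.69, 6.62 and 6.65 in wild type, a difference of 0.53 (SE 0.35) that was 0.11 without AtrxΔE2 array 1.

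On the lower side, Tnnc1, the slow skeletal and cardiac troponin C, gave 8.11, 8.40 and 8.84 in AtrxΔE2 and 8.86, 9.37 and 8.88 in wild type, a difference of -0.59 (SE 0.225) that was -0.86 without the third arrays. Syne1, a giant nesprin of the nuclear envelope, gave 7.77, 7.89 and 7.75 in AtrxΔE2 and 8.19, 8.39 and 8.05 in wild type, a difference of -0.41 (SE 0.0935). Both separated the genotypes, Tnnc1 narrowly.

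Signalling genes followed. Pak3, an X-linked kinase of dendritic spines whose human mutation causes intellectual disability, gave 10.79, 10.74 and 10.62 in AtrxΔE2 and 11.04, 11.18 and 11 in wild type, a difference of -0.36 (SE 0.0656). Fkbp1b, which stabilises ryanodine receptors, averaged 10.11 ± 0.111 in AtrxΔE2 and 10.47 ± 0.077 in wild type (SD), a difference of -0.36 (SE 0.069). Mtor, the growth and nutrient kinase, had -0.34 (SE 0.101), and Rps6ka1, a ribosomal S6 kinase, had -0.32 (SE 0.11) from 1 probe and -0.09 (SE 0.0654) from the other. Wfs1, an endoplasmic reticulum protein abundant in CA1 neurons, had -0.33 (SE 0.101). The mismatch repair gene Mlh3 had -0.31 (SE 0.0579), as did Rbbp9, a serine hydrolase (SE 0.0613), and Trappc6a, a vesicle tethering factor (SE 0.112). Smgc, a mucin-like protein of glands, had -0.32 by 1 probe and 0.02 by its other. Dct, the dopachrome tautomerase, had -0.38 (SE 0.144) and was near the blank level in AtrxΔE2 (5.94, 5.96 and 5.85) and on wild-type array 1 (5.96).

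Small errors brought other genes to the front of the order by p. Timm29, a subunit of the mitochondrial inner membrane translocase, gave 8.72, 8.70 and 8.77 in AtrxΔE2 and 8.43, 8.48 and 8.48 in wild type, a difference of 0.27 (SE 0.0319). Cul9, a cullin that binds p53, gave 7.39, 7.46 and 7.42 in AtrxΔE2 and 7.22, 7.12 and 7.14 in wild type, a difference of 0.26 (SE 0.0377). Both separated the genotypes by more than the range within either. Pigh, of the first step of GPI anchor synthesis, had 0.26 (SE 0.045), Akr1c14, a 3-alpha-hydroxysteroid dehydrogenase, 0.25 (SE 0.0464), Nrn1l, a neuritin relative, 0.19 (SE 0.035), and Rtca, an RNA cyclase, 0.18 (SE 0.0314).

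In the lower direction, Ctsf, a lysosomal cathepsin, gave 8.62, 8.57 and 8.62 in AtrxΔE2 and 8.81, 8.83 and 8.82 in wild type, a difference of -0.22 (SE 0.0276). Kdm3b, a demethylase of histone H3 lysine 9, gave 8.17, 8.25 and 8.26 in AtrxΔE2 and 8.49, 8.51 and 8.45 in wild type, a difference of -0.26 (SE 0.0371). Neither gene's arrays overlapped between the genotypes. Stam, an endosomal sorting adaptor, had -0.29 (SE 0.0481), Dcaf12, a ubiquitin ligase substrate receptor, -0.20 (SE 0.034), and the metalloprotease Adamts17 -0.18 (SE 0.0282). None of these was called. Of the 16 genes with the smallest p, Atp7a among them, 12 had the same sign in the second series. For those shown by array here, Timm29 had -0.06, Cul9 0.01, Ctsf 0.10 and Kdm3b -0.06 in that series.

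Lists of genes were described by counts beside those of all 15918 genes, of which 49.2% were higher in AtrxΔE2, 270 (1.7%) were higher and 295 (1.85%) lower at an unadjusted p under 0.05, and the median difference was 0. The genotypes did not overlap at 557 genes in the higher direction (3.5%) and at 610 in the lower (3.83%). No member of any list was called. Of 21 measured genes for ATRX and its partners, 9 were higher and 12 lower, with a median of -0.01. Atrx was the only 1 at an unadjusted p under 0.05. Daxx, the chaperone partner, had 0.03 (SE 0.0388), H3f3b, which encodes H3.3, had 0.14 (SE 0.204), Ctcf, the insulator protein, had -0.15 (SE 0.076), and Smarca4, another remodeller, had -0.14 (SE 0.0883). The list of H3K9 methylation and KAP1 silencing held 17 measured genes with a median of 0.02, Kdm3b being the 1 at an unadjusted p under 0.05, while Setdb1 and Ehmt1, both H3K9 methyltransferases, had 0.06 and 0.04 and Trim28, which encodes KAP1, had 0.

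Among 19 genes of DNA methylation, Dnmt1, the maintenance methyltransferase, gave 7.83, 7.87 and 7.85 in AtrxΔE2 and 7.98, 7.98 and 7.94 in wild type, without overlap, a difference of -0.12 (SE 0.0281). The de novo enzymes Dnmt3a and Dnmt3b had -0.06 (SE 0.03) and 0.04 (SE 0.0309), and the list's median was 0.01. Of 20 genes for helicases and other proteins of G-quadruplexes, 9 were higher and 11 lower, with Dhx36 at -0.06 (SE 0.0345) and Blm at -0.09 (SE 0.0648). Zinc finger genes named Zfp numbered 243, with 158 higher (65%) and a median of 0.02. Of these, 7 were higher and 4 lower at an unadjusted p under 0.05, near the background. Zfp644, whose product binds the G9a complex, gave 9, 8.82 and 8.93 in AtrxΔE2 and 9.15, 9.28 and 9.19 in wild type, a difference of -0.29 (SE 0.0586). Protocadherins, cell adhesion genes arranged in clusters, numbered 33, with 12 higher, 21 lower and a median of -0.03. The X-linked Pcdh19 gave 6.51, 6.64 and 6.57 in AtrxΔE2 and 6.77, 6.84 and 6.87 in wild type, a difference of -0.26 (SE 0.0464).

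Synaptic genes had small median differences. Presynaptic genes were lower in 24 of 32 cases with a median of -0.05, and 2 of them were lower at an unadjusted p under 0.05. These were Syn2, a synapsin of vesicles, with 11.90, 11.93 and 11.96 in AtrxΔE2 and 12.19, 12.23 and 11.99 in wild type (-0.21, SE 0.067), and Napb, a SNAP of membrane fusion (-0.17, SE 0.0576). Snap25, a fusion SNARE, had 0.12 (SE 0.0514). Glutamate receptor genes had a median of -0.03 over 24, with Gria1 and Gria2 at -0.20 (SE 0.14) and 0.05 (SE 0.0631), or -0.36 and 0.12 without the third arrays (limma adjusted p = 0.836 and 0.966), and postsynaptic scaffolds a median of -0.01 over 19. In the list of calcium/calmodulin kinases and plasticity, 14 of 32 were higher. Camk2b, the beta subunit, gave 11.64, 11.78 and 11.63 in AtrxΔE2 and 11.99, 11.80 and 11.84 in wild type, a difference of -0.20 (SE 0.0679). Camk2d, the delta subunit, had -0.29 (SE 0.106), Camk2g, the gamma subunit, 0.02 (SE 0.123), and the upstream kinase Camkk2 0.29 (SE 0.104), which was 0.13 without the third arrays. Immediate early genes had a median of 0.08, with 19 of 26 higher, and 0 of 26 had an unadjusted p under 0.05. Without the third arrays the median was 0.15. Arc varied from 8.39 to 9.45 in AtrxΔE2 and from 7.98 to 9.17 in wild type, and Fos from 9 to 9.39 in AtrxΔE2 and from 8.09 to 9.86 in wild type.

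Genes of haem synthesis, transport and breakdown numbered 37, with 21 higher and a median of 0.01. Alad, which joins 2 molecules of 5-aminolevulinic acid, gave 8.96, 8.96 and 9.03 in AtrxΔE2 and 8.88, 8.57 and 8.54 in wild type, without overlap, a difference of 0.32 (SE 0.0937). It was the 1 member at an unadjusted p under 0.05. Slc25a38, the mitochondrial glycine carrier of haem synthesis, had 0.11 (SE 0.0482), Uros, uroporphyrinogen synthase, -0.12 (SE 0.0566), and Hmox2, the constitutive haem oxygenase, 0.27 (SE 0.14). In the antioxidant list of 30 genes the median was 0.02. Gclc, the catalytic subunit of glutathione synthesis, had 0.26 (SE 0.085), Gsr, glutathione reductase, -0.11 (SE 0.0362), and Nqo1, a quinone reductase, -0.04 (SE 0.0924).

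The list with the largest shift was that of myelin and oligodendrocyte genes, in which 29 of 30 were higher in AtrxΔE2 (96.7%, against 49.2% of all genes) with a median difference of 0.25. It rested on 2 arrays, and the median was 0.12 without AtrxΔE2 array 1 and 0.47 without AtrxΔE2 array 3. The median over the list of each gene's deviation from its own mean was 0.50, 0.20 and -0.19 on AtrxΔE2 arrays 1 to 3 and -0.02, -0.16 and -0.16 on wild-type arrays 1 to 3, so that AtrxΔE2 array 3 lay below every wild-type array. Bcas1, a marker of oligodendrocytes that are forming myelin, gave 9.20, 9.24 and 8.44 in AtrxΔE2 and 8.35, 8.42 and 8.25 in wild type, a difference of 0.62 (SE 0.219), and was the 1 member at an unadjusted p under 0.05. Mbp, myelin basic protein, gave 11.84, 11.65 and 10.98 in AtrxΔE2 and 10.96, 11.05 and 10.91 in wild type, a difference of 0.52 (SE 0.22). Opalin, an oligodendrocyte membrane protein, gave 10.28, 10.38 and 9.22 in AtrxΔE2 and 9.49, 9.07 and 9.24 in wild type, a difference of 0.70 (SE 0.324). In each of these genes AtrxΔE2 array 3 lay near the wild-type arrays. Mag, the myelin-associated glycoprotein, had 0.55 (SE 0.268), while the lineage factors Olig2 and Sox10 had -0.03 (SE 0.0789) and 0.10 (SE 0.0833).

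Without the third arrays of both genotypes, the myelin median was 0.39 with 27 of 30 higher, and the differences were 0.83 for Bcas1 and 0.74 for Mbp (limma adjusted p = 0.615 and 0.836). Genes of the striatum, 14 of 19 higher with a median of 0.03, were also highest on AtrxΔE2 array 1, with array medians of 0.25, -0.01 and -0.10 in AtrxΔE2 and 0.01, -0.03 and -0.03 in wild type, and their part in the myelin values was not tested. The striatal median was 0.16, with 15 of 19 higher, without the third arrays. In the second series, the median of the myelin list was -0.10, and the test of a difference between the series called none of Bcas1, Mbp and Opalin, Bcas1 having an adjusted p of 0.173. Oligodendrocyte precursors had a median of 0.01 over 16 genes, with Pdgfra, their defining receptor, at -0.15 (SE 0.0466).

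**Figure D5:**
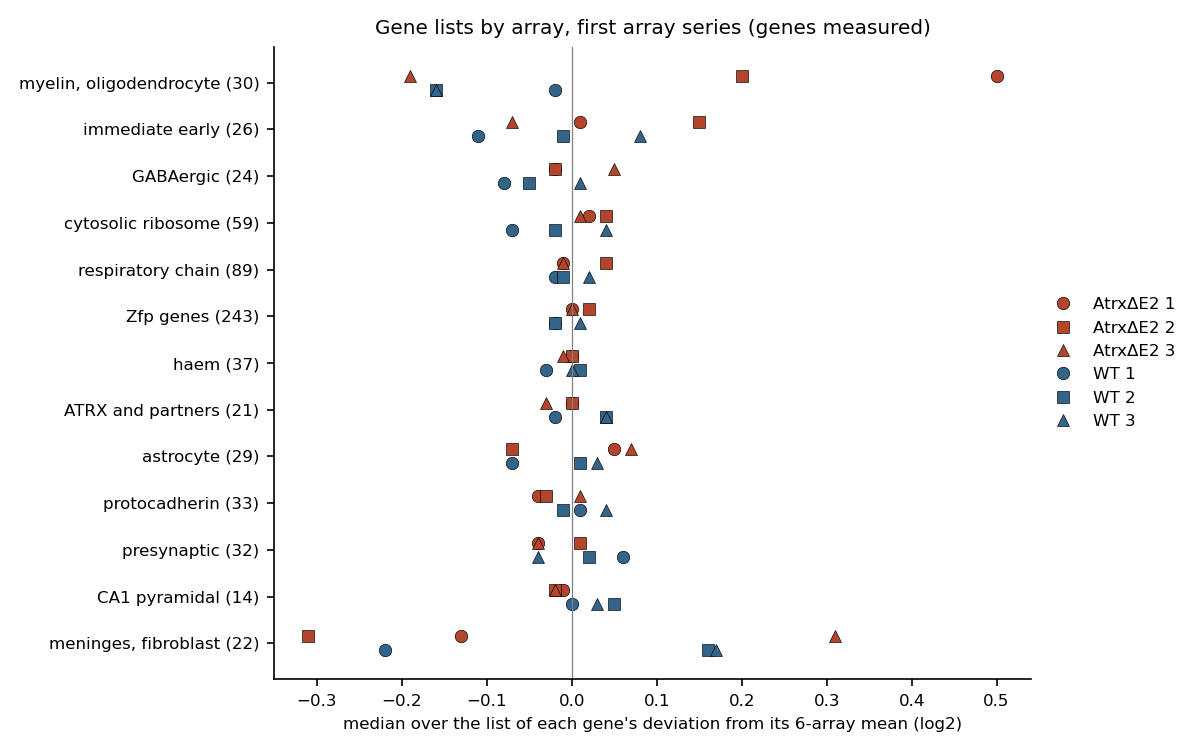
Median deviation of each list's genes from their 6-array means (log2, x axis) on each array, with the number of genes measured in brackets, AtrxΔE2 (red) above WT (blue) in every row and a symbol per replicate number. AtrxΔE2 arrays 1 and 2 stand at 0.50 and 0.20 for myelin genes, AtrxΔE2 array 3 at -0.19 lies below the wild-type arrays, and most other lists stay near 0.

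Other cell types showed medians near 0. Astrocyte genes had -0.01 over 29, with Gfap, Aqp4 and Slc1a3 at 0.05, -0.05 and -0.05 and the gap junction gene Gjb6 at -0.19 (SE 0.0713). Microglial genes had 0.03 over 28, with C1qa and Cx3cr1 at 0.07 and 0.03 and the receptor Gpr34 at -0.17 (SE 0.0419). Genes of GABAergic neurons had 0.08 over 24, with 16 higher, and 0.02 with 15 higher without the third arrays. Npy, neuropeptide Y, gave 11.51, 11.61 and 11.57 in AtrxΔE2 and 11.26, 11.41 and 11.44 in wild type, a difference of 0.19 (SE 0.0576), while Gad2 and Pvalb had 0.11 and 0.09. Penk, the enkephalin precursor, ranged from 9.75 to 11 in AtrxΔE2 and from 9.47 to 10.58 in wild type. CA1 genes had a median of -0.05 over 14 (-0.01 without the third arrays), dentate granule genes 0 over 20, and CA3 genes 0.01 over 15. Meningeal and fibroblast genes had -0.10 over 22 and followed the arrays more than the genotype, with medians of -0.13, -0.31 and 0.31 in AtrxΔE2 and -0.22, 0.16 and 0.17 in wild type. The meningeal median was -0.24 without the third arrays. Ttr gave 7.49, 7.41 and 6.28 in AtrxΔE2 and 5.97, 6.11 and 7.63 in wild type, a difference of 0.49 (SE 0.546) that was 1.40 without the third arrays (limma adjusted p = 0.615).

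Genes of the ribosome and mitochondria had shifts within the spread between arrays. Cytosolic ribosomal proteins were higher in 46 of 59 cases with a median of 0.05, which was 0.12 with median scaling, and 3 had an unadjusted p under 0.05, all higher: Rpl19 (0.14), Rpl22 (0.16) and Rps7 (0.16). The array medians of the ribosomal list were 0.02, 0.04 and 0.01 in AtrxΔE2 and -0.07, -0.02 and 0.04 in wild type, which overlap. Respiratory chain genes had 0.02 over 89, with 4 higher and 0 lower at an unadjusted p under 0.05, Uqcrfs1 among them. Mitochondrial ribosomal proteins had 0.02 over 77 and the proteasome 0.01 over 36. Olfactory receptors, a family known from olfactory sensory neurons, had a median of 0 over 567 genes.

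Without the third arrays, Ctcf had -0.05 and Smarca4 -0.24, against -0.15 and -0.14 with them. Slc1a3 had -0.21, Nme4 -0.10 and Hmox1 -0.12, each further below 0 than with all arrays. The differences of Arc and Fos were 0.93 and 0.63, against 0.36 and 0.14 with all arrays. Cx3cr1 had -0.10 and C1qa -0.01, both of the other sign, as had Camk2g at -0.02, and Gad2 and Pvalb had 0.01 and 0.14. None of these genes was called in that fit.

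Above the blank spots on every array of 1 genotype and on none of the other were 31 probes, 22 of them named, all dim, with differences of at most 0.0808 in size.

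Some differences rested on a single array. Among the 13 probes lower by more than 0.5, Sez6l2, Elovl4, Rab4b and Bend6 were low on AtrxΔE2 array 2 alone. Rab4b, for a small GTPase of endosomal recycling, gave 9.82, 7.91 and 9.92 in AtrxΔE2 and 10, 9.56 and 9.67 in wild type. Cap1, an actin-regulating protein with the largest difference of any named probe (0.95, SE 0.779), gave 9.53, 10.06 and 7.72 in AtrxΔE2 and 9.39, 7.57 and 7.5 in wild type. These 5 genes were picked after their values had been seen.

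Against the second series, which shares no arrays with the first, the directions over all probes were near an even split. Of the 764 first-series probes at an unadjusted p under 0.05, 404 had the same sign in the second series (52.9%), against 49.7% of all probes. Across all probes the correlation of the 2 sets of differences was 0.025, and across those 764 it was 0.118; probes are not independent replicates, and 57.8% of probes differed in level between the series. Of the 30 genes with the largest differences, 17 had the same sign in the second series, and of the 16 with the smallest p 12 had. These counts were not tested. All 30 kept their sign when the third arrays were left out. Their choice for arrays that do not overlap between the genotypes all but fixed this in advance, so it tests nothing.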

How the data were processed

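Total RNA of 18 mice was amplified to amino allyl RNA and labelled with Cy5, per the labels' protocols, and hybridised to single-colour arrays with 1 array per mouse. The deposited spot files give the median intensity of each spot and its local background from scans at several gains, per the file headers, which name no scaling between arrays. The authors also deposited a table of normalized intensity per probe, in which the values show a median of 25 on every array. Aligner and build do not apply, and the build behind the probe design is not given in the sources used here.

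For the 6 first-series arrays, spot intensities were corrected with normexp (offset 50), log2 transformed, averaged per probe without unusable spots and quantile normalized in limma 3.58.1 (R 4.3.3). A probe was kept if on 3 or more arrays it was brighter than 95% of the blank spots. Genotypes were compared with lmFit and eBayes, on 4 residual and 1.83 prior degrees of freedom, with Benjamini-Hochberg adjustment over 22526 probes. The differences given for the second series come from a joint fit of the 14 AtrxΔE2 and wild-type arrays of both series, normalized together. That joint fit also tested the difference between the series. The p-values measure the spread between these mice, and the number of arrays limits the precision. The fit was checked on simulated data.

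Of the probes, 16631 had 1 symbol in the platform's annotation, 0 had several and 6842 had none. Of those symbols 12622 were current in RefSeq GRCm38.p6, 3947 were updated through it and 62 were not found there. A gene with several probes is described by the probe of highest mean intensity. The genes named are the 15 largest non-overlapping differences and the 8 smallest p in each direction, the first 3 and the 4 smallest p of each list, and a short fixed set. Members and lists were chosen with earlier results of these data known. Alternatives were background correction, scaling, the filter, the prior, array weights, the authors' table, a replicate block and leaving out arrays.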

Additional observations from a re-analysis of the deposited data

Results flagged for a closer look

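The genotype difference itself differed between the 2 array series at 24 of 22728 probes (0.106%) in a joint limma fit, with adjusted p from 0.00417 to 0.0463 over the named probes given here. The first-series difference was at most 0.20 in size in each of them. The values below are the first-series difference minus the second-series difference, on the log2 scale of the joint fit, followed by the difference within each series. The largest was Slc17a6, a vesicular glutamate transporter of thalamic and other subcortical neurons, at 2.08, with -0.02 in the first series and -2.10 in the second. Rora, a nuclear receptor, stood at 1.04 (0.20 in the first series, -0.84 in the second). Zic2, a transcription factor, stood at 0.96 (0.05 in the first series, -0.91 in the second), and Tmie, known from hair cells, at 0.69 (-0.03 in the first series, -0.72 in the second). Msantd4 stood at 0.40 (0.14 in the first series, -0.27 in the second), Iyd at 0.35 (0.03 and -0.32 in the same order) and Sptssb at 0.34 (0.05 and -0.30).

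In the other direction, Kl, the klotho gene of choroid plexus, stood at -0.68 (-0.08 in the first series, 0.59 in the second). Cldn2, a claudin of choroid plexus, stood at -0.59 (0.01 in the first series, 0.60 in the second). Rsph9, of motile cilia, stood at -0.64, Slc16a8, a lactate transporter, at -0.47, Abca4 at -0.44 and Krt28 at -0.44. The defensins Defb11 and Defb10 stood at -0.61 and -0.49, and Defb10 was above the blank spots on 2 of the 6 first-series arrays. Choroid plexus, thalamus and array levels also differed between the series, with 20 of 22 choroid plexus genes and 14 of 22 thalamus and septum genes lower in the first, where 26.1% of all probes were lower and 31.7% higher, and the part of this in the difference was not tested.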

How the results depend on the processing

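No probe was called by limma at an adjusted p under 0.05 in any alternative planned for the first-series comparison. The thresholds of 0.1 and 0.2 were run on the settings of the report only. That 0 were called there follows from limma's smallest adjusted p of 0.258 with those settings. The smallest adjusted p was 0.0623 with a trended and robust prior, 0.191 with array quality weights and up to 1, without AtrxΔE2 replicate 1 or 2. With the spread shared with the second series, an alternative added after the data had been seen, there were 2 calls, Atp7a and the unnamed probe. The number of probes at an unadjusted p under 0.05, 764 as reported, was 1355 with median scaling (924 higher, 431 lower), 1204 with a replicate block and 1241 without replicate 3 of both genotypes. Leaving out 1 array at a time gave 562 to 1264, with 562 without WT replicate 2 and 1264 without WT replicate 3. The causes of these moves were not tested.

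The labels number the mice of each genotype and do not say whether mice of the same number share anything else. Deviations from the genotype means correlated at 0.146, 0.0885 and 0.511 for the same-numbered pairs 1 to 3, and not every array correlated best with its own number. The replicate block gave 0 calls.

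The 24 probes whose genotype difference differed between the series became 12 with consecutive arrays of the second series averaged in pairs. Leaving out 1 array at a time gave 13 to 59, with 13 without WT replicate 2, 15 without WT replicate 5, 41 without AtrxΔE2 replicate 6 and 59 without WT replicate 3.

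For a selected set of genes, each difference was counted once per alternative. It moved by less than the spread between replicates in 2225 such cases and by more in 86. List medians, also counted once per list and alternative, moved by less in 821 cases and by more in 79. Among the genes named, differences near 0 took both signs across the alternatives for Alas1, Camk2a, Fos, Aqp4, Slc1a3, C1qa, Cx3cr1, Gad2, Pvalb, H19, Nme4, Nqo1, Camk2g, Trim28 and Xlr5d. With 3 mice a genotype, a median standard error of 0.0506 and an offset that shrinks dim probes, small differences and those of probes near the blank spots could not be resolved.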
